A study of Homo sapiens with 18 samples.

Results

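A549 lung cancer cells carrying siRNA1 against BLM were compared directly with A549 cells carrying siRNA2 against the same gene. The comparison used 6 of the 18 RNA sequencing libraries of the series, 3 per siRNA, taken by cell line and siRNA name. The comparison itself and the gene lists were chosen with earlier results of these data known. Of 27968 gene symbols in the deposited files, 13834 reached a CPM (reads of a gene scaled to a common library size) of 1 in at least 3 of the 6 libraries and were tested. No control library entered the fit. The 3 A549 libraries with a control siRNA and the 3 with siRNA3 stand beside the members as levels, and MDA-MB-231 breast cancer cells with a control siRNA or siRNA1, 3 libraries each, served as a separate comparison. All groups were transfected cells grown in DMEM with fetal bovine serum, and sequencing used a stranded kit on total RNA depleted of ribosomal RNA. The protocols name both 2D and 3D culture and do not say which applied to which library. The labels give no siRNA sequences, and that siRNA1 is the same molecule in both lines is assumed from its name. Whether a group's libraries were grown as separate cultures is not in the labels. A p-value here therefore measures the spread between libraries, and that spread may be technical.

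BLM is a RecQ helicase. Together with the topoisomerase TOP3A and the small proteins RMI1 and RMI2 it dissolves joined DNA molecules that arise when homologous recombination repairs broken or stalled replication forks. Cells need the most of such proteins in S and G2 phase, and the genes for replication, recombination and mitosis are switched on in waves. In that programme the E2F factors act mainly on S phase genes, and the DREAM and MYB-MuvB complexes with FOXM1 act mainly on G2/M genes. The tumour suppressor p53 raises CDKN1A, an inhibitor of cyclin-dependent kinases, through which cell cycle genes are repressed.

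The 6 libraries held 32890798 to 37727038 expected counts, of which 6.18% to 7.13% fell on the top 10 genes. Summed markers of A549 and airway epithelium, such as the keratins KRT7, KRT8 and KRT18, ran from 29103 to 30769 CPM with siRNA1 and from 16082 to 16335 CPM with siRNA2. The 5 erythroid markers summed to at most 0.112 CPM and the 6 endothelial markers to at most 1.18 CPM, and the leukocyte markers CD3D, CD3E, MS4A1 and CD163 were at 0 in all 6 libraries. The summed leukocyte list was 25.4 to 27.8 CPM with siRNA1 and 37.2 to 40.1 CPM with siRNA2, and the fibroblast list 27.6 to 33.1 and 42.4 to 47.2 CPM. Alveolar type 2 markers summed to 72.0 to 82.7 CPM with siRNA1 and 40.6 to 43.4 CPM with siRNA2, with SFTPA1 at 0, and 2 of the 9 passed the filter. Library 2 of siRNA1 and library 3 of siRNA2 departed from their groups in the same direction across genes (Pearson r of the deviations 0.721, a description), so leading counts are also given without both. The part of these library and marker differences in the results was not tested.

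Both siRNAs left BLM far below the control level, and siRNA1 left less of it than siRNA2. BLM stood at 1.24, 1.24 and 1.21 CPM in the siRNA1 libraries and at 10.6, 11 and 11.2 CPM in the siRNA2 libraries, beside 84.6, 87.9 and 76.4 CPM in the control libraries and 6.54, 6.34 and 7.13 CPM with siRNA3. The ranges of the 4 groups did not overlap. On the log2 scale BLM was -3.15 ± 0.10 (siRNA1 minus siRNA2, with its standard error; adjusted p = 1.23e-07, edgeR quasi-likelihood F test with Benjamini-Hochberg adjustment over all 13834 genes), a level 11.2% of that with siRNA2. In bulk RNA, fewer cells with a transcript and less of it per cell cannot be told apart, here and in all that follows.

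The gap between the siRNAs reached well beyond BLM. At an adjusted p under 0.05, 4591 genes were higher with siRNA1 than with siRNA2 (33.2% of those tested), 4300 were lower (31.1%), and 4943 were not called. Each list count below is to be read beside these shares. The median log2 difference over all genes was 0.02. Differences of at least 1 on the log2 scale were called for 1059 genes higher (7.66%) and 990 lower (7.16%) with siRNA1. The largest differences lay mostly on the lower side: 316 genes were lower by at least 2 and 194 higher by at least 2, and 70 were lower by at least 4 and 14 higher by at least 4. Of the 1059 genes, 240 (22.7%) were under 1 CPM in every siRNA2 library, as were all 14 higher by at least 4. Of the 990, 148 (14.9%) were under 1 CPM in every siRNA1 library, as were 15 of the 70 lower by at least 4. Such genes passed the filter through the group in which they are high and had to differ. Among genes named here they are CENPA, PIF1, MMP9, EGR1 and CDKN1C on the lower side and RGMA, GRIN2C, FLG-AS1, BCL2L2-PABPN1, CRYAB and MUC20 on the higher side. On deposited TPM plus 1, tested with limma-trend, 5974 genes were higher and 3155 lower (65.4% of the called genes higher, against 51.6%), and the median of all genes was 0.14. That alternative changed the values, their scaling and the test together. Without the 2 libraries that deviated together the counts were 4948 higher and 4922 lower.

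**Figure D1:**
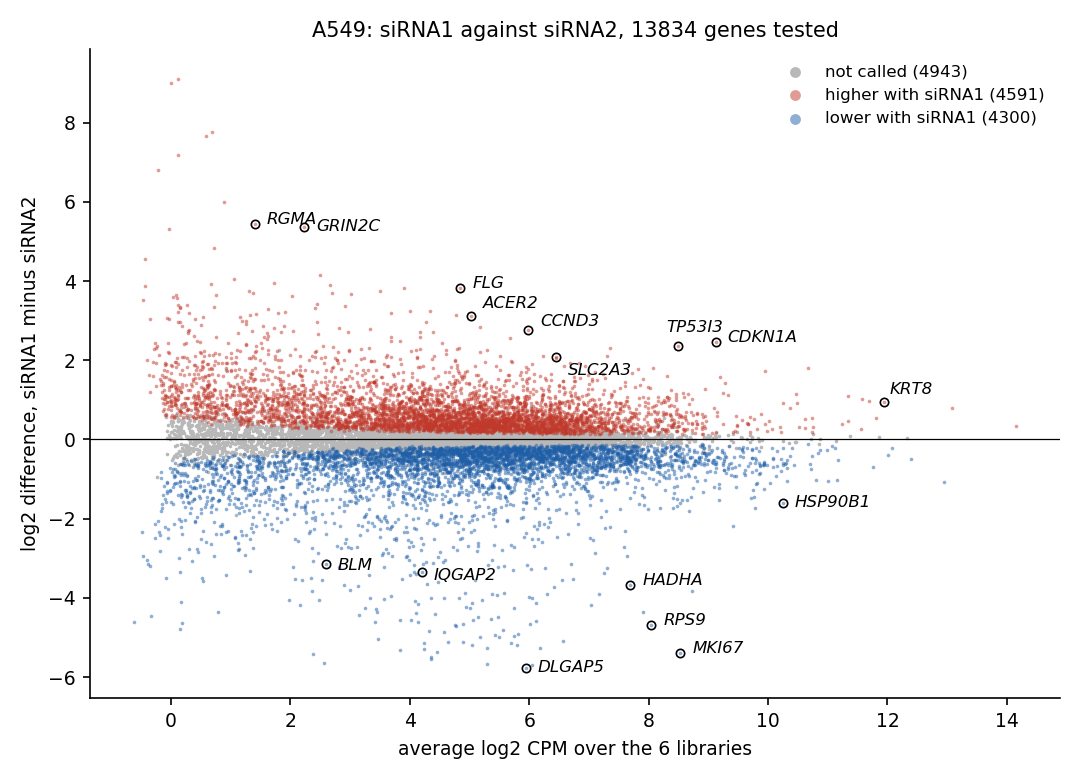
Log2 difference between siRNA1 and siRNA2 in A549 (vertical axis) against the average log2 CPM over the 6 libraries (horizontal axis) for 13834 genes, with called genes in colour and some named genes circled. The 4591 higher and 4300 lower genes spread over all levels, and the largest differences among well-expressed genes, such as MKI67 and DLGAP5, lie on the lower side.

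With siRNA1 mitotic genes stood below their siRNA2 level, and of the lists described their median was the lowest. All 36 members of the G2/M and mitosis list passed the filter, and 36 of them were lower, 35 by at least 1, where 31.1% and 7.16% of all genes were. Their median difference was -4.03 against 0.02 for all genes. The list's range ran from -5.78 for DLGAP5 to -0.85 for CDC25B. Without the 2 libraries noted above, 35 of 35 tested members were lower.

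DLGAP5, which steadies microtubules at kinetochores, had the lowest difference of any gene named here. Its level was 1.86, 2.45 and 2.31 CPM with siRNA1 and 119, 123 and 121 CPM with siRNA2, a difference of -5.78 ± 0.10 (edgeR adjusted p = 1.53e-08). The siRNA1 libraries thus held 1.82% of the siRNA2 level, while the siRNA2 libraries lay between the 86.9, 94.0 and 96.6 CPM of siRNA3 and the 189, 199.6 and 156 CPM of the control libraries. The kinesin KIF20A, needed for cytokinesis, was at 2.42, 2.67 and 2.36 CPM against 129, 137 and 124 CPM (-5.70 ± 0.08, edgeR adjusted p = 1.53e-08), with 134, 129.7 and 127 CPM in control. For KIF20A the siRNA2 and control ranges overlapped and the siRNA1 values were lower than both. MKI67, which encodes the proliferation marker Ki-67, was at 15.1, 16.4 and 20.1 CPM against 746, 749 and 674 CPM (-5.39 ± 0.12, edgeR adjusted p = 2.85e-08), and at 979.8, 759.8 and 996 CPM in control. PLK1, a kinase that drives entry into and passage through mitosis, was at 3.66, 2.73 and 4.67 CPM against 145, 150 and 131 CPM (-5.27 ± 0.17, edgeR adjusted p = 1.28e-07). None of these groups overlapped between siRNA1 and siRNA2.

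The cyclins and the main mitotic kinase followed with smaller but still large differences. CCNB1, the cyclin that activates CDK1, was at 27.3, 26.1 and 27.4 CPM with siRNA1 and 285, 289 and 262 CPM with siRNA2 (-3.37 ± 0.06, edgeR adjusted p = 1.53e-08). CDK1 itself was at 5.39, 6.58 and 6.41 CPM against 83.8, 88.4 and 96.5 CPM (-3.87 ± 0.10), and its control libraries held 217, 234 and 183 CPM. CCNA2, the cyclin of S and G2 phase, was at 2.84, 2.95 and 2.28 CPM against 75.3, 83.8 and 90.1 CPM (-4.95 ± 0.12). These genes were also at lower levels with siRNA2 than in every control library, so both siRNA groups stood below control and siRNA1 stood far lower. The aurora kinases differed in size: AURKB of the chromosomal passenger complex was -5.12 ± 0.09 and AURKA of the spindle poles -2.71 ± 0.08.

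The machinery that holds and pulls chromosomes was lower as well. In the centromere and kinetochore list, 36 of 38 members were lower and 2 higher, with a median of -2.22. CENPA, the histone variant that marks centromeres, was at 0.954, 0.703 and 0.928 CPM with siRNA1 and 38.6, 40.6 and 41.6 CPM with siRNA2 (-5.54 ± 0.11, edgeR adjusted p = 2.2e-08). CENPA passed the filter through siRNA2 alone, so it had to differ and its p-value adds no support. In the control libraries CENPA was at 42.8, 44.6 and 38.4 CPM, which overlapped the siRNA2 range. NUF2, a part of the complex that binds microtubules at kinetochores, was at 0.567, 1.18 and 0.928 CPM against 38.3, 40.6 and 42.2 CPM (-5.50 ± 0.18). With siRNA1 only the library at 1.18 CPM reached 1 CPM, so NUF2 too passed the filter through its siRNA2 libraries. The 2 members that were higher were MAD1L1 (0.99 ± 0.08), a spindle checkpoint protein, and CENPT (0.22 ± 0.07), whose call is lost in the fit of all 12 A549 libraries (edgeR adjusted p = 0.0854) and without siRNA1 library 1, siRNA2 library 2 or siRNA2 library 3 (0.0548 to 0.0726).

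Kinesins, the motors of spindle and cargo transport, differed in both directions. Of 41 kinesin genes, 37 passed the filter, 22 were lower and 10 higher, where 31.1% and 33.2% of all genes were. Besides KIF20A, the lowest were KIF2C (-5.68 ± 0.13), which removes tubulin from microtubule ends, KIF4A (-4.92 ± 0.13) and KIFC1 (-4.83 ± 0.10), all known from mitosis. The highest were KIF1C (1.81 ± 0.05), KIF3C (1.51 ± 0.07), KIF17 (1.1 ± 0.18) and KIF3B (1.1 ± 0.06), which carry cargo. KIF1C was at 417, 399.8 and 438 CPM with siRNA1 and 121, 119 and 118 CPM with siRNA2, with no overlap, beside 112, 111 and 126 CPM in control and 398, 388 and 269.5 CPM with siRNA3.

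Condensin and cohesin, the rings that fold and join chromosomes, gave 24 lower and 1 higher of 28 members, with a median of -1.32. ESCO2, which acetylates cohesin in S phase, was -4.55 ± 0.15, and the condensin subunit NCAPG -4.49 ± 0.08. Proteins of the nuclear envelope and of chromatin architecture were also lower: 12 of 14 lamins and high mobility group genes, with a median of -1.23. HMGB2, a DNA-bending chromatin protein, was at 6.55, 8.80 and 7.2 CPM with siRNA1 against 126, 133 and 136 CPM with siRNA2 (-4.13 ± 0.11, edgeR adjusted p = 5.79e-08). LMNB1, a B-type lamin of the nuclear envelope, was at 13.9, 15.6 and 14.2 CPM against 137, 141 and 139.5 CPM (-3.26 ± 0.07, edgeR adjusted p = 2.2e-08). Neither gene's groups overlapped, and both were below the control libraries, which held 171, 189.5 and 168 CPM of HMGB2 and 219, 229 and 213 CPM of LMNB1. LMNA, the gene of the A-type lamins, was the 1 member that was higher (0.33 ± 0.08, edgeR adjusted p = 0.00557).

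**Figure D2:**
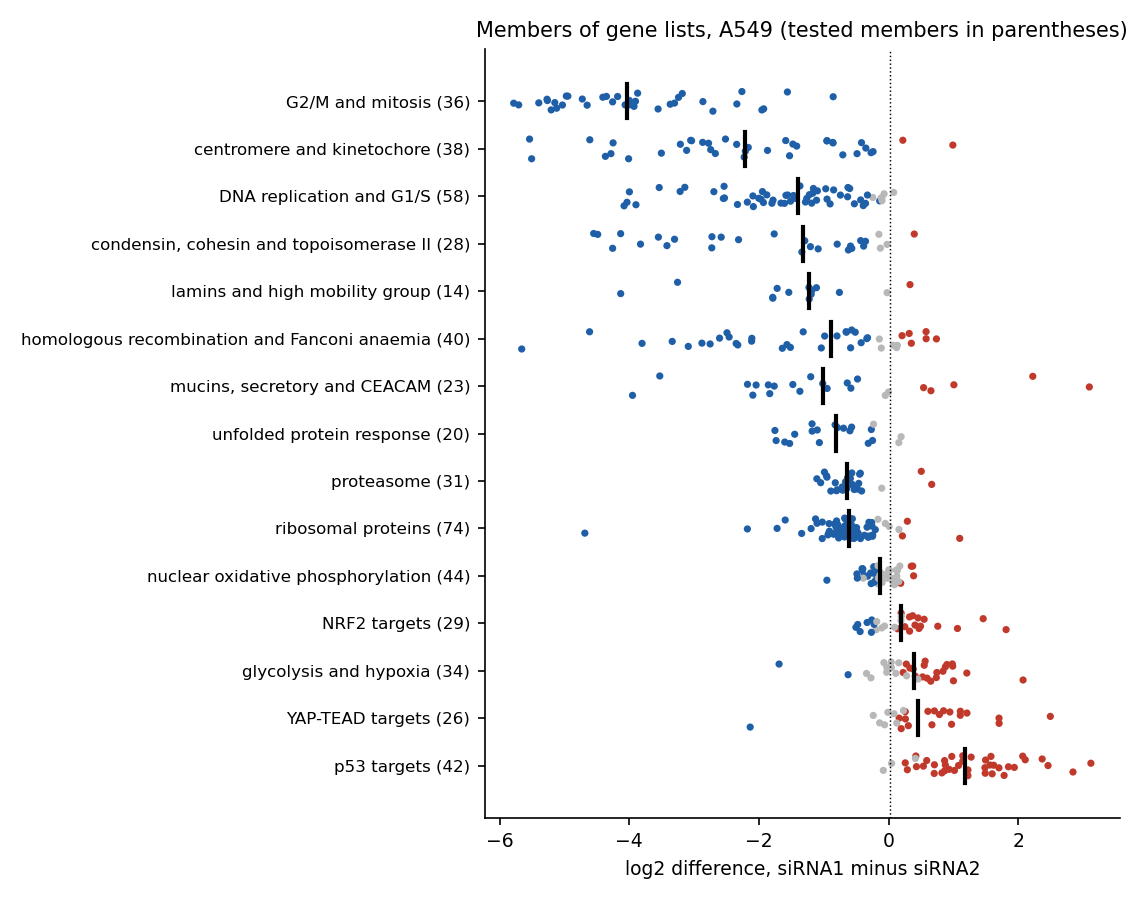
Log2 difference (siRNA1 minus siRNA2) of every tested member of 15 gene lists, with 1 point per gene, red for higher, blue for lower and grey for not called, and a black bar at each list's median. All 36 G2/M genes lie left of the dotted line at the median of all genes, and 39 of 42 p53 target genes are called higher.

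The promoters of the genes with the lowest differences often held the same short sequence elements. Promoters were taken from RefSeq (build GRCh38.p14, 250 bases before to 50 after the gene's start), while the deposited counts were made on hg19, and 10995 of the 13834 tested genes matched one. The cell cycle genes homology region (CHR), through which DREAM and MYB-MuvB act, was searched on both strands as TTTGAA or TTCGAA. It was present in 36 of 57 promoters (63.2%) of genes lower by at least 4, in 179 of 767 (23.3%) of genes lower by at least 1, in 82 of 779 (10.5%) of genes higher by at least 1, and in 10.2% of the other tested genes. Over all 27305 promoters of the table the share was 16.6%. The CCAAT box, bound by NF-Y and searched as CCAAT on both strands, was in 64.9% of the promoters of genes lower by at least 4 and in 36.5% of those of all tested genes (35.7% of the table). Both elements together were in 26 of 57 (45.6%) and 4.68% (6.58% of the table). In the G2/M list, 20 of 29 matched promoters (69.0%) held a CHR and 24 (82.8%) a CCAAT box. These are counts of letters, not of bound sites, and members were grouped by the differences themselves, so the shares are a description without a test.

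DLGAP5 is shown because it had the lowest difference and holds all 3 kinds of element, and KIF20A because it is nearly as low and holds only CCAAT boxes. Capitals mark CHR letters, CCAAT boxes and E2F sites on either strand.
DLGAP5 (chr14:55191536-55191835, minus strand): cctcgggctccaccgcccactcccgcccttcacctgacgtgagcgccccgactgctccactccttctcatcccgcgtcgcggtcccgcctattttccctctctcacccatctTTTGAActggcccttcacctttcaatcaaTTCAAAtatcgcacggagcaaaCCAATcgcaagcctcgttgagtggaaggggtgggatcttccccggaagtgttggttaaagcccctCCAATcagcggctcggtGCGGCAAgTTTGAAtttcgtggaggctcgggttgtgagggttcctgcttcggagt
KIF20A (chr5:138178862-138179161, plus strand): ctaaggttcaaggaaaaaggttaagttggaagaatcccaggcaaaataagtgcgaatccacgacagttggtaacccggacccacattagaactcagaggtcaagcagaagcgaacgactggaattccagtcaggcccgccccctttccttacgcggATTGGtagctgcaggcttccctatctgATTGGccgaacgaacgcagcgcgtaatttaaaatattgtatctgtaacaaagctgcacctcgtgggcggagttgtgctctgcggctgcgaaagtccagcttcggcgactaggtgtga
The DLGAP5 promoter has 3 CHR matches, at -138, -109 and 3 bases from the start, with 2 CCAAT boxes at -87 and -22 and 1 E2F site at -5 between the second and the third. KIF20A has 2 CCAAT boxes in reverse, at -94 and -67, and no CHR letters in this window. The KIF2C promoter of the table, at a difference of -5.68 for its gene, held none of these letters. Also planned for display by size of difference were the higher genes ACER2 (3.12), SPATA18 (2.84) and CCND3 (2.77). Their promoters held none of these letters either and are not shown.

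After DLGAP5, the 8 lowest genes with CHR letters and an average log2 CPM of at least 1 are shown as windows of 30 bases, with the CHR nearest the start in capitals, read along the gene's strand.
CENPA (chr2:26786026-26786055, plus strand): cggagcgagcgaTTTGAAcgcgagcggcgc
NUF2 (chr1:163321958-163321987, plus strand): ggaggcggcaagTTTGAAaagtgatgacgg
PIF1 (chr15:64825650-64825679, minus strand): ctgcctctagcaTTTGAAaaatttctagtt
MKI67 (chr10:128126435-128126464, minus strand): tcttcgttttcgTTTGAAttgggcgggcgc
GTSE1 (chr22:46296832-46296861, plus strand): ctcggagcccttTTCAAAccgaccaatcgg
PLK1 (chr16:23678848-23678877, plus strand): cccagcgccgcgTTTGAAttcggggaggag
CCNB2 (chr15:59105105-59105134, plus strand): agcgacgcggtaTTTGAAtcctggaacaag
NUSAP1 (chr15:41332882-41332911, plus strand): tggcgccagggaTTTGAAccgcgctgacga
In these 8 promoters the element began between 29 bases before and 16 bases after the annotated start. GTSE1 carries it on the opposite strand, and the other 7 carry TTTGAA as read. Their differences ran from -5.54 for CENPA to -5.15 for NUSAP1, and PIF1 (0.155, 0.281 and 0.281 CPM with siRNA1 against 10.7, 10.6 and 9.55 CPM with siRNA2) encodes a DNA helicase.

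**Figure D3:**
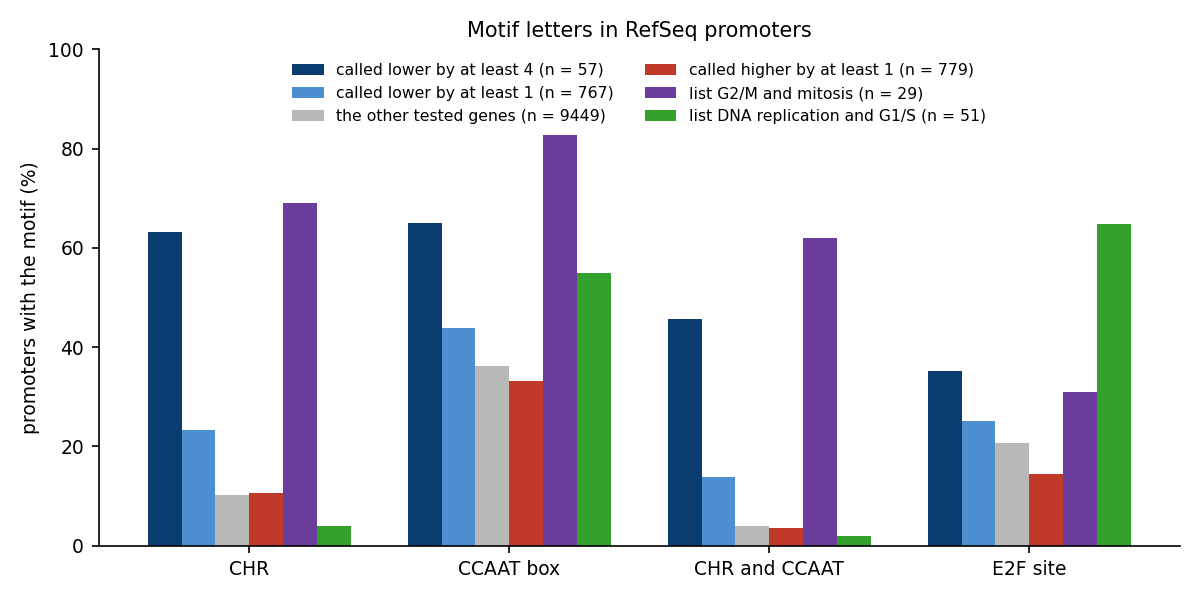
Share of RefSeq promoters (vertical axis, percent, from 0) that hold the letters of a CHR, a CCAAT box, both, or an E2F site, for sets of genes by their difference and for 2 gene lists, with the number of promoters in the legend. CHR letters are in 63.2% of promoters of genes lower by at least 4 and in 10.2% of those of the other tested genes, and E2F letters are in 64.7% of the DNA replication list.

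Genes of DNA replication were lower too, by less. All 58 members passed the filter, 52 were lower and 0 higher, with a median of -1.40, and without the 2 deviating libraries 53 of 57 were lower. The initiation factors led. MCM10 was at 1.96, 1.77 and 1.94 CPM with siRNA1 and 32.8, 31.3 and 32.0 CPM with siRNA2 (-4.08 ± 0.08, edgeR adjusted p = 2.2e-08), beside 121, 127 and 118 CPM in control. CDT1, which loads the replicative helicase, was -4.03 ± 0.18, CDC45, a part of that helicase, -4.0 ± 0.10, and the loader CDC6 -3.90 ± 0.09. Subunits of the MCM ring spread from -2.54 for MCM7 to -0.43 for MCM3. PCNA, the sliding clamp, was at 283, 297 and 272 CPM against 306, 319.8 and 313 CPM (-0.14 ± 0.05, edgeR adjusted p = 0.0448), a call that is lost on the TPM scale, where its difference is 0.01 (limma-trend adjusted p = 0.827), with upper quartile scaling, and without 5 of the 6 libraries in turn.

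E2F sites were frequent in this list. The search on both strands took TTCCCGC as one form of the site, TTGGCGC as another, and TTCGCGC or TTGCCGC as further forms. These letters were in 33 of 51 matched promoters (64.7%) of the replication list, in 20.6% of all tested genes with a promoter and in 13.1% of the table, while CHR letters were in 3.92% of the list. The 5 members with the lowest differences and an E2F site are shown, under the same limits on chromosome, promoter and level. The site nearest the start is in capitals, again along the gene's strand.
CDT1 (chr16:88803755-88803784, plus strand): cgggaaatttgGCGGGAAccgcgcccgcct
CDC6 (chr17:40287876-40287905, plus strand): gccattcggatTTGGCGCgagcgcggctgg
ORC1 (chr1:52404424-52404453, minus strand): cacgccgattgGCGCGAAgttttcttttct
CLSPN (chr1:35769965-35769994, minus strand): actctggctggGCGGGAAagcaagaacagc
POLE2 (chr14:49688201-49688230, minus strand): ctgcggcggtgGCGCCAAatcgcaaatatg
CDC6 carries the site as read and the other 4 on the opposite strand, and all 5 sites begin within 23 bases of the start. The log2 differences of these genes were -4.03 for CDT1, -3.90 for CDC6, -3.22 for ORC1, -3.14 for CLSPN and -2.70 for POLE2.

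Nucleotide supply genes differed in both directions. In the list of dNTP supply, 11 of 19 genes were lower and 7 higher, where 31.1% and 33.2% of all genes were. The 7 become 4 without siRNA1 library 1, siRNA1 library 3 or siRNA2 library 3. RRM2, the ribonucleotide reductase subunit of S phase, was at 4.90, 5.23 and 6.05 CPM with siRNA1 and 167, 193 and 189.9 CPM with siRNA2 (-5.09 ± 0.10, edgeR adjusted p = 2.2e-08). RRM2B, the p53-responsive form of that subunit, was at 221, 296 and 199 CPM against 90.4, 95.9 and 121 CPM (1.22 ± 0.16, edgeR adjusted p = 0.00027). The 2 forms of thymidine kinase diverged likewise, the cytosolic TK1 at -4.26 ± 0.16 and the mitochondrial TK2 at 1.83 ± 0.10.

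Among the partners of BLM, the differences were uneven. In the list of RecQ helicases and the BLM complex, 10 of 13 genes, BLM included, were lower and 1 higher. TOP3A was at 45.3, 40.5 and 48.3 CPM with siRNA1 and 44.9, 45.7 and 44.3 CPM with siRNA2 and was not called (-0.01 ± 0.08, edgeR adjusted p = 0.934). RMI1 was at 8.79, 10.7 and 8.64 against 20.7, 21.5 and 24.7 CPM (-1.25 ± 0.11, edgeR adjusted p = 3.03e-05), and RMI2 at 5.39, 4.95 and 4.28 against 12.1, 15 and 13.7 CPM (-1.48 ± 0.12, edgeR adjusted p = 1.74e-05). RMI1 and RMI2 did not overlap between the siRNAs, and both groups were below the control libraries, at 46.3, 48.8 and 45.9 CPM of RMI1 and 56.6, 60.4 and 52.6 CPM of RMI2. Of the other RecQ helicases, RECQL4 was -2.63 ± 0.15 and RECQL5 0.53 ± 0.08, WRN was -0.34 ± 0.08 (a call lost on the TPM scale, where it is -0.18 with a limma-trend adjusted p of 0.115), and RECQL (-0.10 ± 0.09, edgeR adjusted p = 0.383) was not called. The nucleases that resect DNA with BLM differed: EXO1 was at 1.19, 1.86 and 1.69 CPM against 31.6, 35.4 and 31.7 CPM (-4.39 ± 0.14), and DNA2 was -1.57 ± 0.12. The RPA subunits, which coat single-stranded DNA, were -0.63 ± 0.06 (RPA1), -0.97 ± 0.07 (RPA2) and -1.28 ± 0.09 (RPA3).

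Repair by homologous recombination, which copies an intact sister strand, was mostly represented among the lower genes. In the list of homologous recombination and Fanconi anaemia genes, 29 of 40 were lower and 6 higher, with a median of -0.89. RAD54L, a motor protein that moves along DNA during recombination, was at 0.876, 0.956 and 1.38 CPM with siRNA1 and 15.9, 15.3 and 13.5 CPM with siRNA2 (-3.80 ± 0.16, edgeR adjusted p = 5.63e-07), beside 21.4, 23.5 and 23.6 CPM in control. Its siRNA1 and siRNA2 libraries did not overlap. With siRNA1 only the library at 1.38 CPM reached 1 CPM. RAD54L thus passed the filter through its siRNA2 libraries, and its p-value adds no support. MUS81, the nuclease that cuts joined molecules, was higher: 27.0, 24.6 and 27.8 CPM against 15.8, 15.9 and 15.9 CPM (0.74 ± 0.07, edgeR adjusted p = 4.99e-05). Other higher members were SWI5 (0.58 ± 0.08) and the Fanconi genes FANCC (0.58 ± 0.08) and FANCL (0.35 ± 0.09).

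Of 21 checkpoint kinases and mediators, 14 were lower (9 with TPM plus 1) and 1 higher (2 without siRNA1 library 3, 3 with TPM plus 1). WEE1, which holds CDK1 inactive, was -2.82 ± 0.07, and the related PKMYT1 -3.69 ± 0.21. Of 58 replication-dependent histone genes, 5 passed the filter and 4 of these were lower. With no filter 15 were lower. Of the 4, HIST2H2BE (-0.28) loses its call with DESeq2, upper quartile scaling and TPM plus 1, and without each of the 6 libraries in turn. Most such transcripts lack poly(A) tails, and how well these total RNA libraries captured them was not tested.

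The regulators of the cell cycle programme split in the same comparison. In the list of E2F, RB and DREAM or MYB-MuvB factors, 15 of 27 tested genes were lower and 5 higher. The 5 become 3 without siRNA2 library 1 or siRNA2 library 2. Of all genes, 31.1% were lower and 33.2% higher. MYBL2, the activating subunit of MYB-MuvB, was at 3.12, 3.18 and 3.83 CPM with siRNA1 and 80.5, 81.2 and 74.7 CPM with siRNA2 (-4.55 ± 0.10, edgeR adjusted p = 2.58e-08), and FOXM1 at 11.4, 12.4 and 13.3 CPM against 116, 115 and 107 CPM (-3.18 ± 0.08, edgeR adjusted p = 4.19e-08). Neither gene overlapped between the siRNAs. In the control libraries MYBL2 was at 75.7, 82.8 and 87.7 CPM, overlapping siRNA2, and FOXM1 at 150.2, 152 and 171 CPM, above it. The retinoblastoma gene RB1 was not called (-0.02 ± 0.19, edgeR adjusted p = 0.932), nor was RBL2 (0.04 ± 0.06, edgeR adjusted p = 0.587), a core protein of DREAM. CCND3, a D-type cyclin, went the other way. It was at 114, 98.5 and 116 CPM with siRNA1 and 15.3, 16.7 and 16.2 CPM with siRNA2 (2.77 ± 0.08, edgeR adjusted p = 1.12e-07), and the 80.3, 83.9 and 91.9 CPM of the control libraries and the 60.6, 63.1 and 76.0 CPM of siRNA3 lay between. Here siRNA2 was the group farther from control.

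Members of the list of CDK inhibitors did not move as one. CDKN1A was at 979, 866 and 979 CPM with siRNA1 and 179, 179 and 156 CPM with siRNA2 (2.46 ± 0.08, 5.49-fold, edgeR adjusted p = 1.28e-07). The control libraries held 64.3, 68.8 and 71.1 CPM and siRNA3 152, 147 and 178 CPM, so siRNA2 and siRNA3 overlapped above control and siRNA1 lay far above them. CDKN1B was -0.99 ± 0.18 (edgeR adjusted p = 0.00138), CDKN1C -1.70 ± 0.25, CDKN2C -2.11 ± 0.07 and CDKN3 -2.85 ± 0.09, all lower with siRNA1, and CDKN2D was not called (0.17 ± 0.17, edgeR adjusted p = 0.41). Of the 8 listed, 2 did not pass the filter.

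Target genes of p53 were higher with siRNA1 almost throughout. All 42 passed the filter, 39 were higher and 0 lower, 25 of them higher by at least 1, where 33.2% and 7.66% of all genes were. The median was 1.18, and without the 2 deviating libraries 40 of 42 were higher. The 3 that were not called were CCNG1 (-0.08 ± 0.12), TP53I11 (0.05 ± 0.07) and KITLG (0.41 ± 0.22). ACER2, an alkaline ceramidase, was at 55.4, 60.6 and 57.2 CPM with siRNA1 against 7.78, 6.31 and 5.83 CPM with siRNA2 (3.12 ± 0.11, edgeR adjusted p = 2.09e-07), with 5.30, 5.09 and 5.03 CPM in control. SPATA18, which acts in quality control of mitochondria, was at 60.8, 67.5 and 61.0 CPM against 7.90, 9.10 and 9.40 CPM (2.84 ± 0.09, edgeR adjusted p = 1.28e-07), with 2.3, 1.63 and 1.92 CPM in control. In ACER2 the siRNA2 libraries all stood just above the control range, and in SPATA18 well above it.

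Members with other tasks were higher as well. MDM2, the ubiquitin ligase that p53 induces and that degrades it, was at 796, 1062 and 768 CPM with siRNA1 against 272, 284 and 324 CPM with siRNA2 (1.58 ± 0.13, edgeR adjusted p = 1.88e-05). The death receptor FAS was at 157, 183 and 148 CPM against 41.6, 42.0 and 43.6 CPM (1.94 ± 0.09, edgeR adjusted p = 7.12e-07). BTG2, which restrains proliferation, was at 136, 137 and 148 CPM against 51.2, 51.9 and 46.7 CPM (1.49 ± 0.07), and the quinone oxidoreductase TP53I3 at 600.5, 584 and 619 CPM against 119, 119 and 112 CPM (2.37 ± 0.05). For MDM2, FAS and BTG2 the control libraries were lower than both groups, at 127, 128 and 129.8 CPM of MDM2, 21.9, 24.1 and 19.8 CPM of FAS and 10.2, 10.5 and 8.68 CPM of BTG2. The letters of a p53 site as a pair of half-sites, searched by name, were in 0 of 34 matched promoters of the list and in 5 of 10995 of the tested genes (0.0455%; 0.0293% of the table). Of those 5, 3 were among the 779 matched genes higher by at least 1 (0.385%). These counts are too few to compare and say nothing on binding elsewhere.

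**Figure D4:**
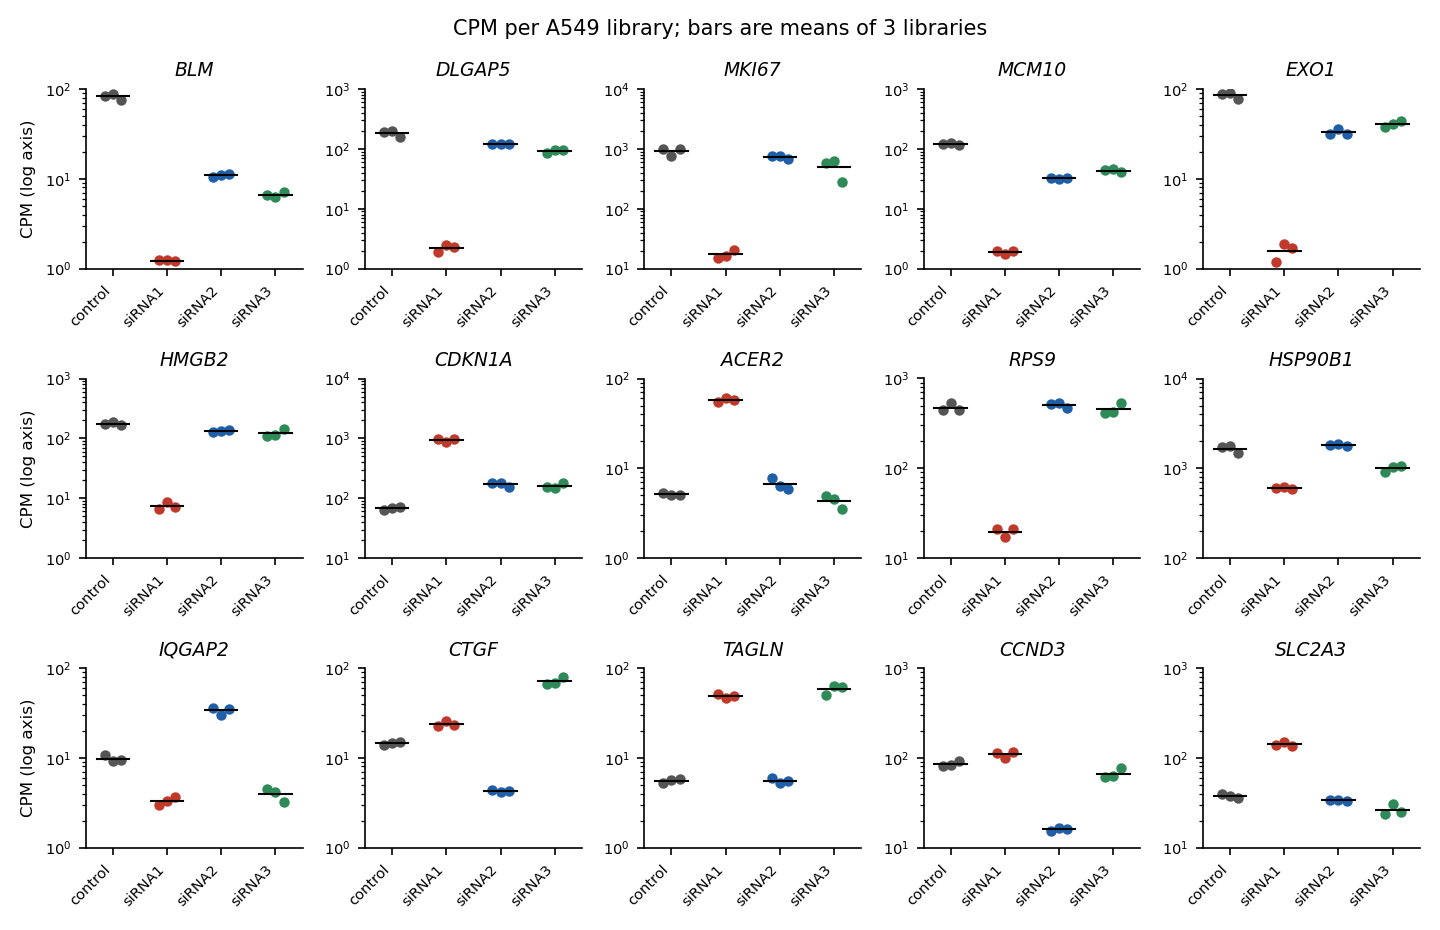
CPM of 15 named genes in each A549 library (vertical axis, log scale, with its own range per gene), with 1 point per library and a bar at the mean of 3, for control, siRNA1, siRNA2 and siRNA3. In DLGAP5, MKI67, EXO1, HMGB2 and RPS9 the siRNA1 libraries stand apart below all others, in CDKN1A, ACER2 and SLC2A3 above, and in CCND3 and CTGF the siRNA2 libraries are the lowest.

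Protein synthesis and quality control genes were lower with siRNA1 by modest amounts. Of 74 ribosomal protein genes, 67 were lower and 3 higher, with a median of -0.62, and across the alternatives other than a minimum difference 58 to 68 were lower. The 3 higher become 1 without siRNA1 library 1, siRNA1 library 3 or siRNA2 library 3 and 5 with TPM plus 1. RPS9, of the small subunit, stood apart from the rest. It was at 21.1, 17.2 and 20.9 CPM with siRNA1 and 519, 529 and 475 CPM with siRNA2 (-4.68 ± 0.10, edgeR adjusted p = 2.2e-08), and at 442, 532 and 449.9 CPM in control and 409, 423 and 538 CPM with siRNA3, ranges that overlapped that of siRNA2. The next were RPL23A (-2.18 ± 0.06), RPL3 (-1.72 ± 0.07) and RPL10A (-1.60 ± 0.05). RPL21 was called higher (1.1 ± 0.34, edgeR adjusted p = 0.0224), but its siRNA1 libraries, at 46.9, 16.4 and 37.7 CPM, overlapped those of siRNA2 at 17.4, 17.6 and 12.2 CPM, and the call is lost without siRNA1 library 1, siRNA1 library 3 or siRNA2 library 3 (0.79 to 1.02, edgeR adjusted p 0.0691 to 0.0867). Ribosomal protein genes have many near-identical copies between which RSEM divides reads, so single values are uncertain.

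Proteasome subunits, which degrade ubiquitin-marked proteins, were lower within a narrow range. Of 31 members, 28 were lower, between -1.11 for PSMA2 and -0.42 for PSMC1, and the median was -0.65. The exceptions were PSMD1 (0.66 ± 0.05, edgeR adjusted p = 1.05e-05) and PSMC5 (0.50 ± 0.06, edgeR adjusted p = 0.000141), which were higher, and PSMA6 (-0.11 ± 0.05, edgeR adjusted p = 0.0901), which was not called. PSMD1, a scaffold of the regulatory particle, was at 178, 178 and 178 CPM with siRNA1 and 112, 116 and 109 CPM with siRNA2, but at 378, 377 and 359 CPM in control. For PSMA2, of the catalytic core's outer ring, the siRNA1 libraries held 112, 96.0 and 109 CPM and siRNA2 240.5, 243 and 200.4 CPM, and the control range of 244, 263 and 211 CPM overlapped that of siRNA2.

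Chaperones of the endoplasmic reticulum were lower together. In the list of the unfolded protein response, 17 of 20 genes were lower and 0 higher, with a median of -0.81, and 13 to 18 were lower across the same alternatives. Without siRNA1 library 2 and with TPM plus 1, 1 member was higher. HSP90B1, an abundant chaperone of the lumen, was at 597, 618 and 589 CPM with siRNA1 and 1835, 1877 and 1765 CPM with siRNA2 (-1.60 ± 0.05, edgeR adjusted p = 1e-07), with 1717, 1785 and 1475 CPM in control. PDIA4, which forms disulfide bonds, was at 155, 155 and 163 CPM against 539.6, 526 and 508 CPM (-1.73 ± 0.05, edgeR adjusted p = 8.39e-08), with 372, 380.0 and 374 CPM in control. In PDIA4 the control libraries lay between the siRNAs, and in HSP90B1 they overlapped siRNA2. The secreted factor MANF (-1.75 ± 0.07) and the isomerase PDIA6 (-1.53 ± 0.05) were the other members with the largest differences.

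Targets of YAP and TEAD, the transcriptional output of the Hippo pathway, were mostly higher with siRNA1. Of 26 genes, 18 were higher and 1 lower, with a median of 0.45. CTGF, a matricellular protein, was at 22.7, 25.9 and 23.0 CPM with siRNA1 and 4.36, 4.11 and 4.22 CPM with siRNA2 (2.49 ± 0.09, edgeR adjusted p = 2.16e-07). CYR61, of the same family, was at 45.3, 48.8 and 44.2 CPM against 13.7, 14.9 and 13.8 CPM (1.70 ± 0.07, edgeR adjusted p = 6.32e-07). Control libraries lay between the groups, at 14.1, 14.5 and 15.1 CPM of CTGF and 29.9, 34.2 and 33.9 CPM of CYR61, and siRNA3 was far above, at 65.6, 68.7 and 80.3 CPM of CTGF and 190.1, 196 and 234 CPM of CYR61. The order of the 3 siRNAs thus differed from that in BLM. AMOTL2 (1.70 ± 0.06) and AJUBA (1.21 ± 0.06) were higher, and NT5E, the ecto-nucleotidase that makes adenosine, was the 1 member called lower (-2.13 ± 0.07, edgeR adjusted p = 1.26e-07). The count of lower members is 2 without siRNA1 library 2, in the fit of all 12 A549 libraries and with DESeq2, and 3 without the 2 deviating libraries.

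Cytoskeletal and mesenchymal genes went both ways. Of 25 tested members among 32, 13 were higher and 6 lower, where 33.2% and 31.1% of all genes were. TAGLN, an actin-binding protein of smooth muscle, was at 51.3, 46.0 and 49.0 CPM with siRNA1 and 5.92, 5.23 and 5.49 CPM with siRNA2 (3.13 ± 0.08, edgeR adjusted p = 5.78e-08), while control held 5.25, 5.66 and 5.81 CPM and siRNA3 50.2, 63.6 and 62.0 CPM. For TAGLN, the siRNA1 range overlapped that of siRNA3 and the siRNA2 range that of control. Smooth muscle actin ACTA2 was at 124, 121 and 128 CPM against 39.6, 41.6 and 37.6 CPM (1.65 ± 0.06), with 2.64, 2.35 and 2.62 CPM in control, below both. The matrix proteases MMP9 (-3.50 ± 0.25) and MMP2 (-1.35 ± 0.07) were lower with siRNA1. In extracellular matrix and integrin genes, 24 of 46 were lower, where 31.1% of all genes were, and 13 higher, a share below the 33.2% of all genes. FBLN1, a matrix protein of basement membranes, was at 8.82, 8.30 and 9.76 CPM against 52.8, 51.7 and 45.6 CPM (-2.48 ± 0.09, edgeR adjusted p = 2.94e-07), with 34.1, 35.2 and 36.5 CPM in control and 28.6, 31.3 and 30.6 CPM with siRNA3. COL17A1, a collagen of hemidesmosomes, was 1.64 ± 0.07 and LAMB2, a laminin chain, 1.53 ± 0.09. The summed fibroblast markers given above were lower with siRNA1, and their part in these values was not tested.

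Genes of mucins, CEACAM proteins and other secreted products were mainly higher with siRNA2. Of 34 mucin, CEACAM and other secretory genes 23 passed the filter, 16 were lower with siRNA1 and 5 higher, with a median of -1.02. FGB, the beta chain of fibrinogen, was at 24.2, 24.7 and 24.5 CPM with siRNA1 and 112, 98.6 and 121 CPM with siRNA2 (-2.18 ± 0.08, edgeR adjusted p = 3.44e-07), with 18.3, 12 and 15.3 CPM in control and 3.67, 4.28 and 4.78 CPM with siRNA3. CEACAM5, an adhesion molecule of the mucosal surface, was at 2.09, 1.32 and 1.24 CPM against 27.1, 21.2 and 24.1 CPM (-3.95 ± 0.19, edgeR adjusted p = 1.01e-06). Control libraries held 0.555, 0.114 and 0.189 CPM of CEACAM5, below both groups. In the other direction, MUC19, a secreted mucin, was 2.22 ± 0.12. MUC20, a membrane mucin, was at 2.35, 2.28 and 2.67 CPM against 0.354, 0.240 and 0.248 CPM (3.09 ± 0.20) and passed the filter through siRNA1 alone.

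Epithelial junction and keratin genes had calls on both sides. Of 32 tested epithelial genes, 13 were higher with siRNA1 and 14 lower, shares not far from the 33.2% and 31.1% of all genes. KRT8, a keratin of simple epithelia, was at 5244, 4572 and 5624 CPM with siRNA1 and 2761, 2725 and 2578 CPM with siRNA2 (0.94 ± 0.08, edgeR adjusted p = 1.94e-05), and its partner KRT18 was 0.97 ± 0.06. EPCAM, an epithelial adhesion protein, was at 8.20, 9.67 and 7.6 CPM against 50.2, 51.1 and 62.9 CPM (-2.69 ± 0.13, edgeR adjusted p = 9.42e-07), with 2.69, 2.57 and 2.08 CPM in control, so both siRNAs were above control. The A549 marker ALDH3A1, an aldehyde dehydrogenase, was at 2549.6, 2244 and 2839 CPM against 734, 702 and 739 CPM (1.81 ± 0.08, edgeR adjusted p = 9.42e-07). KRT8, KRT18 and ALDH3A1 are also part of the A549 marker sum given above, which was higher with siRNA1. In NRF2 targets, to which ALDH3A1 also belongs, 15 of 29 were higher and 7 lower (3 with TPM plus 1).

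Glycolysis and hypoxia genes were higher in 20 and lower in 2 of 34 cases, with a median of 0.40. SLC2A3, a glucose transporter, was at 138, 151 and 134 CPM with siRNA1 and 33.8, 33.7 and 33.2 CPM with siRNA2 (2.07 ± 0.06, edgeR adjusted p = 1.21e-07), with 39.1, 37.2 and 35.3 CPM in control. It has a close paralog, SLC2A14, with which reads may be shared. PGK1, an enzyme of glycolysis, ran against the list at 167, 165 and 172 CPM against 537, 550.2 and 540.4 CPM (-1.69 ± 0.05, edgeR adjusted p = 6.29e-08), with 843, 853 and 868 CPM in control. For PGK1 both siRNA groups were below control and did not overlap.

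Signalling lists had calls on both sides, as did all genes, of which 33.2% were higher and 31.1% lower. In the TGF-beta pathway 16 of 27 genes were higher and 10 lower. The receptor TGFBR1 was lower (-1.60 ± 0.13), whereas the ligand BMP2 (1.58 ± 0.18) and the inhibitory SMAD7 (1.37 ± 0.06) were higher. Of 27 immediate early genes 13 were higher and 10 lower, from EGR1 (-2.99 ± 0.24) to DUSP1 (1.83 ± 0.06), a phosphatase that turns off MAP kinases. Among secreted factors associated with senescence, 17 of 29 passed the filter, 7 were higher and 9 lower. AREG, a ligand of the EGF receptor, was at 27.3, 27.0 and 26.7 CPM with siRNA1 and 144, 156 and 149 CPM with siRNA2 (-2.47 ± 0.06, edgeR adjusted p = 3.27e-08), with 82.3, 87.5 and 73.0 CPM in control between them. Interferon-stimulated genes gave 14 higher and 15 lower of 36 tested among 47.

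Nuclear oxidative phosphorylation shows how far a list with small differences depends on the setting. Of 44 genes 4 were higher and 16 lower, but 11 were higher without siRNA1 library 2, 2 without siRNA1 library 1, siRNA1 library 3 or siRNA2 library 2, 12 without the 2 deviating libraries and 15 with TPM plus 1, where 8 were lower. The medians of the oxidative phosphorylation, epithelial and interferon lists have the other sign with TPM plus 1, so no direction is given for these lists.

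Where groups did not overlap and the average log2 CPM reached 1, the 15 highest differences ran down from RGMA, and several of these genes had few reads with siRNA2. Genes under that level, some of those higher by at least 4 among them, are not named. RGMA, which binds neogenin and bone morphogenetic proteins, was at 4.97, 4.22 and 5.63 CPM with siRNA1 and 0.118, 0.0901 and 0.124 CPM with siRNA2, the latter from 3 to 4 counts per library (5.44 ± 0.23, edgeR adjusted p = 6.35e-07). GRIN2C, a subunit of the NMDA glutamate receptor, was at 7.91, 8.30 and 10.5 CPM against 0.236, 0.180 and 0.217 CPM (5.37 ± 0.21, edgeR adjusted p = 3.44e-07), from 6 to 8 counts with siRNA2. For both genes the control and siRNA3 libraries were all under 0.4 CPM. With such counts the size of the fitted difference is imprecise. Both genes passed the filter through siRNA1 alone, so their direction was fixed by the filter and their p-values add no support. FLG, the epidermal protein filaggrin, rests on more reads, 114 to 135 counts with siRNA2, and was at 55.0, 48.9 and 56.4 CPM against 3.77, 4.05 and 3.54 CPM (3.82 ± 0.09, edgeR adjusted p = 4.19e-08). The overlapping FLG-AS1 was 4.15 ± 0.17, and since the sources do not say whether counting used strand, the pair cannot be told apart. SLC52A1, a riboflavin transporter, was at 28.7, 23.9 and 30.4 CPM against 1.95, 1.92 and 1.95 CPM (3.83 ± 0.12), and the small heat shock protein CRYAB at 6.99, 7.59 and 7.26 CPM against 0.560, 0.661 and 0.527 CPM (3.63 ± 0.13). BCL2L2-PABPN1 (3.75 ± 0.57), a readthrough of neighbouring genes, had 5.95, 2.81 and 4.28 CPM against 0.589, 0 and 0.372 CPM and is uncertain because its reads can be assigned to either parent gene.

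Some genes stood on opposite sides of the control libraries with the 2 siRNAs. They were chosen by that position, so their place relative to control is a description. HADHA, of the mitochondrial enzyme that breaks down long fatty acids, was at 27.9, 29.2 and 33.8 CPM with siRNA1, 292, 294 and 295 CPM in control and 395, 396 and 361 CPM with siRNA2 (-3.66 ± 0.09, edgeR adjusted p = 3.74e-08). ABCG2, a drug efflux transporter, was at 12, 12.9 and 11.9 CPM with siRNA1, at 104, 97.9 and 96.9 CPM in control and at 119, 119 and 118 CPM with siRNA2 (-3.27 ± 0.06, edgeR adjusted p = 1.53e-08). In both genes siRNA2 was only slightly above control and siRNA1 far below it. IQGAP2, a scaffold protein, was at 2.99, 3.26 and 3.69 CPM with siRNA1, at 10.8, 9.09 and 9.46 CPM in control and at 35.7, 30.2 and 35.1 CPM with siRNA2 (-3.35 ± 0.11). CRABP2, which carries retinoic acid, was at 1.21, 1.18 and 1.38 CPM with siRNA1, at 7.89, 8.49 and 8.38 CPM in control and at 15, 17.3 and 17.0 CPM with siRNA2 (-3.70 ± 0.11). In these the distance from control was large on both sides. On the higher side, NEFL, a neurofilament subunit, was at 36.5, 39.6 and 33.3 CPM with siRNA1, 6.25, 5.23 and 6.22 CPM in control and 3.45, 3.72 and 4.28 CPM with siRNA2 (3.26 ± 0.11, edgeR adjusted p = 1.68e-07). VTN, the adhesion protein vitronectin, was 3.25 ± 0.11, GREB1, known as an estrogen-induced gene, 2.78 ± 0.17, and TP53INP2, which promotes autophagy, 2.58 ± 0.09.

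MDA-MB-231 cells with siRNA1, compared with their own control siRNA, share no library with the A549 comparison. There 4057 of 13572 tested genes were higher (29.9%) and 4041 lower (29.8%). BLM was at 5.24, 5.08 and 5.17 CPM with siRNA1 and 33.5, 35.5 and 35.9 CPM in control (-2.76 ± 0.07, edgeR adjusted p = 1.71e-08). Of 12508 genes tested in both, 833 were lower by at least 1 with siRNA1 than siRNA2 in A549, and 645 of these (77.4%) were lower in MDA-MB-231, where 29.7% of the 12508 were, while 62 (7.44%) were higher. The 645 are 17.4% of the 3711 genes lower in MDA-MB-231. Of 744 genes higher by at least 1 in A549, 344 (46.2%) were higher in MDA-MB-231 (9.12% of 3773), where 30.2% of the 12508 were, and 138 (18.5%) were lower. Across the 12508 genes, which are not independent and share library depth, Pearson's r of the differences was 0.445 and Spearman's rho 0.377, given as a description.

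The lists differed in how far they were shared. All 36 G2/M genes were lower in MDA-MB-231 as well, with a median of -1.54, and 53 of 58 replication genes. In the p53 list 15 of 38 were higher and 11 lower (median 0.06), and in the YAP-TEAD list 3 were higher and 16 lower of 26 (median -0.26). CTGF, for instance, was at 107, 106 and 104 CPM with siRNA1 and 240.1, 246 and 263 CPM in control (-1.24 ± 0.05, edgeR adjusted p = 1.29e-07). Ribosomal proteins gave 25 lower and 2 higher of 74. Of all genes tested in MDA-MB-231, 29.9% were higher and 29.8% lower. The shares of the p53 list and of lower ribosomal proteins were not far from these. The 2 comparisons have different references, and whether a list's difference changes between them was not tested.

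**Figure D5:**
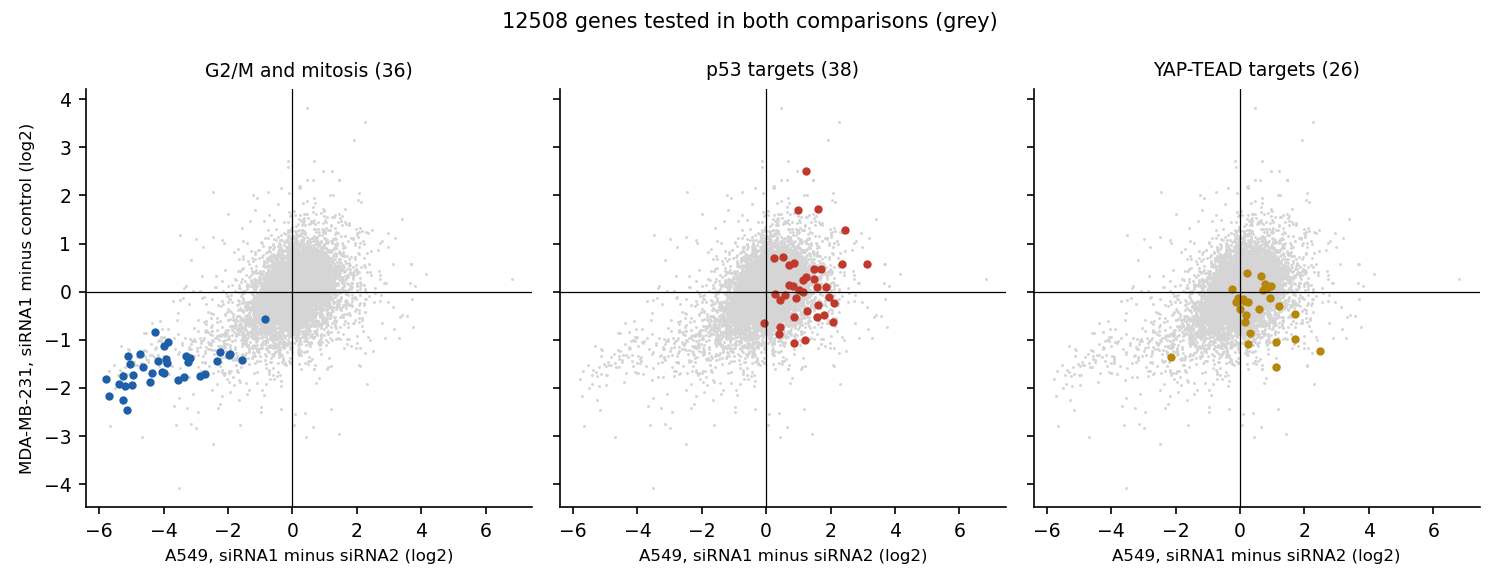
Log2 difference of siRNA1 from the control siRNA in MDA-MB-231 (vertical axis) against the log2 difference of siRNA1 from siRNA2 in A549 (horizontal axis) for 12508 genes (grey), with 3 gene lists in colour. All 36 G2/M genes lie in the lower left, whereas the p53 targets and YAP-TEAD targets, mostly right of 0 in A549, lie on both sides of 0 in MDA-MB-231.

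Several single genes had large differences in both comparisons. RPS9 was at 30.3, 35.9 and 34.5 CPM with siRNA1 and 289, 288 and 242 CPM in control of MDA-MB-231 (-3.02 ± 0.09, edgeR adjusted p = 4.76e-08). DYNLT1, a light chain of dynein, was at 3.12, 3.68 and 3.35 CPM with siRNA1 against 42.2, 42.7 and 38.2 CPM with siRNA2 in A549 (-3.60 ± 0.09) and at 9.76, 7.91 and 8.53 CPM against 56.1, 58.3 and 64.0 CPM in MDA-MB-231 (-2.77 ± 0.09). HAUS1, of the augmin complex that branches spindle microtubules, was -2.98 ± 0.11 in A549 and -2.84 ± 0.09 in MDA-MB-231. HADHA, which is outside this selection, was also lower in MDA-MB-231 (-2.37 ± 0.05). On the higher side, SLC2A3 was 2.07 ± 0.06 in A549 and 2.04 ± 0.06 in MDA-MB-231, and GDF15, a stress-induced cytokine, 1.62 ± 0.09 and 1.72 ± 0.09. The chemokine-scavenging receptor ACKR3 was 1.93 ± 0.12 and 3.15 ± 0.28, and the cilia gene CFAP70 2.04 ± 0.13 and 1.91 ± 0.16. The metallothionein MT1F was 2.25 ± 0.13 and 3.52 ± 0.21, with reads that may be shared among its near-identical relatives. HADHA aside, these genes were picked for differing in both, so their agreement in direction is not a finding.

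Estimated transcript lengths also differed between the siRNAs for some genes. The deposited length of a gene is the mean length of its transcripts weighted by their estimated abundance, so it moves when the mix of transcripts moves. Of 8210 genes with at least 2 annotated transcripts and a TPM of at least 1 in all 6 libraries, 2410 (29.4%) had lengths that did not overlap between the siRNAs, and of these 43 were at least 1.2-fold longer with siRNA1 and 12 at least 1.2-fold shorter. CFLAR, an inhibitor of death receptor signalling, averaged 3336, 3545 and 3367 bases with siRNA1 and 2337, 2356 and 2402 bases with siRNA2. ADCY1, an adenylyl cyclase, averaged 8788, 9573 and 8874 bases with siRNA1 and 5264, 4917 and 5465 with siRNA2. PDK3, which inhibits pyruvate dehydrogenase, went the other way, with 4075, 4564 and 4218 bases against 6677, 7325 and 8339. Among the 2410, 1630 were longer with siRNA1 and 779 shorter. Library deviations from the group followed transcript length to differing degrees (Spearman -0.335 to 0.294), and their part was not tested. The genes named here were chosen after their values were seen. No test was run on lengths, and no share expected by chance was set beside the 29.4%. Which transcripts differ is not given by a length alone.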

How the data were processed

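RNA was measured by sequencing in A549 and MDA-MB-231 cells. Per the submitters' processing notes, the authors ran RSEM with hg19, with version, aligner, annotation and strand setting not given in the sources used here. Expected counts, estimated per gene by the authors' RSEM runs and deposited with 10.9% to 11.7% of values per library not whole, were rounded. The deposited TPM, scaled by the authors per transcript length, served 2 alternatives and the transcript length filter, and the deposited lengths were compared without a test. Groups come from the titles.

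Genes with a CPM of at least 1 in 3 of the 6 libraries compared were tested with edgeR 4.0.16 (TMM scaling, quasi-likelihood F test, R 4.3.3), with Benjamini-Hochberg adjustment over all of them and a threshold of 0.05. Standard errors are the log2 difference divided by the square root of F. CPM in the A549 control and siRNA3 libraries were put on the same scale with the same TMM reference library and were not tested. The fit was tested on simulated data. Alternatives used limma 3.58.1, DESeq2 1.42.0 and the settings of the closing section. With 32890798 to 37727038 counts per A549 library compared, a gene at 1 CPM rests on few reads.

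Named genes were BLM, the 15 highest and 15 lowest called differences without overlap among genes with an average log2 CPM of at least 1, up to 4 called members per list and direction (all members of lists of at most 15), the 5 most extreme genes per direction called by at least 1 on opposite sides of control (average log2 CPM of at least 3), and the 5 per direction called in both lines (at least 1 in both) with the largest smaller difference. AURKA, AURKB, BTG2, CCNA2, CCNB1, CCNG1, CDC25B, CDK1, FAS, KITLG, MCM3, MCM7, MDM2, NUSAP1, ORC1, POLE2, PSMA6, PSMC1, RB1, RBL2, TP53I11 and the genes named for transcript length were chosen after their values were seen. The members, lists and rules were chosen with earlier results of these data known. Replicate numbers were not taken to pair the libraries.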

Additional observations from a re-analysis of the deposited data

How the results depend on the processing

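Across DESeq2 size factors, upper quartile scaling, no filter, filterByExpr, limma-voom, DESeq2's Wald test, TPM plus 1 or plus 0.1 and the fit of all 12 A549 libraries, 4005 to 5974 genes were higher with siRNA1 and 3146 to 4671 lower, all within 1.5 times the main counts. A minimum difference of 1 leaves 1059 and 990. Leaving out each replicate in turn gave 4069 to 4977 higher and 3655 to 4507 lower, and BLM stayed between -3.17 and -3.13. For MDA-MB-231 the same step gave 3416 to 4462 higher and 3537 to 4522 lower. Of the genes called, 25 changed sign with TPM plus 1 and 3 without siRNA1 library 2 and siRNA2 library 3, a setting chosen after seeing the data. PCNA changed sign, from -0.14 to 0.0141559 with TPM plus 1 and 0.0141785 with TPM plus 0.1, and the cause was not tested.

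The labels do not say whether the numbers pair the libraries. Deviations of same-numbered siRNA1 and siRNA2 libraries correlated at 0.384, -0.435 and -0.621. These deviations are centred within each group and so are tied to one another, and they cannot settle whether the libraries are paired. With the replicate block, 4057 genes were higher and 3789 lower in A549 and 4090 and 4012 in MDA-MB-231. Over all named genes and settings, 6991 values kept the call status of the main fit, 297 lost the call, 38 gained it and 2 reversed. Direction was compared only for genes called in the main fit. NHP2, not called there at -0.03, was at 0.13 with TPM plus 1 and counts among those that gained a call. Over list counts, 1720 stayed within 1.5 times and 188 did not. Low counts limit the size of the highest differences. The libraries cannot show whether transfection or culture varied within a group.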
